A study of Mus musculus with 8 samples.

Results

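The 10 genes described here, Cd79a, Cd79b, Syk, Lyn, Blk, Lck, Btk, Blnk, Plcg2 and Bank1, encode the proximal signalling chain of the antigen receptor in the B lineage. They were chosen by name, with earlier results of these data known. Every non-control probe that the scanner files name after one of them was taken, which gave 13 probes out of 41174 on the array. Of these, 12 were tested, at least 1 for each gene, because both arrays of 1 or more groups read them well above background. The remaining probe, 1 of 3 for Bank1, was well above background on 0 of 8 arrays.

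Femoral bone marrow of C57BL/6 mice aged 10 weeks was cultured for 5 days in Iscove's medium with 10% FCS and IL-7, the cytokine under which B cell precursors expand. The genotypes compared were Bob1-/- mice (Bob1 knockout), Bob1+/+ mice (Bob1 wild-type), mir-146a-/- mice (miR-146a knockout) and C57BL/6Ncrl mice (BL6 wild-type). Each of the 4 groups had 2 arrays, A being female and B male, so the number of arrays limits the precision of every value. Bob1, encoded by Pou2af1, is a B-lineage coactivator of the octamer-binding factors Oct1 and Oct2, and miR-146a is a microRNA that dampens innate immune signalling. The duplicates are labelled as biological, but the number of mice per culture is not stated, and p-values therefore refer to the spread between cultures. Whole cultures were profiled, without a sort. In such bulk RNA, fewer cells of a type and less RNA per cell cannot be told apart.

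Cd79a and Cd79b (Ig-alpha and Ig-beta) carry the signal of the pre-B cell receptor and of the B cell receptor across the membrane through their cytoplasmic tyrosine motifs. Src family kinases, in B cells mainly Lyn and Blk, phosphorylate these motifs, Syk docks on them, and Syk then phosphorylates the adaptor Blnk, which brings Btk together with its substrate phospholipase C-gamma-2 (Plcg2). Lck is the Src family kinase best known from T cells, and Bank1 is a B cell scaffold protein that binds Lyn and the inositol trisphosphate receptor.

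The probes are 60-base oligonucleotides, and their positions are those of mm9 in the scanner files. Shown first are the Bank1 probe whose signal fell to background in the Bob1 knockout, the Lyn probe that passed the test there, and the probes of Cd79a and Blk, which did not pass it. For Bank1, Cd79a and Blk the mm9 interval of the probe is longer than the probe itself, so these 3 read sequence from separate exons that is joined in the spliced transcript. The Bank1 interval is chr3:135766871-135876831 on the minus strand, the Lyn interval chr4:3716905-3716964 on the plus strand, the Cd79a interval chr7:25684353-25684610 on the plus strand and the Blk interval chr14:63997333-63998470 on the minus strand.
Bank1 A_51_P492165: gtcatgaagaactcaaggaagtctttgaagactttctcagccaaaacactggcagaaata
Lyn A_52_P34823: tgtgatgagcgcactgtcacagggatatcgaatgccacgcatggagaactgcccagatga
Cd79a A_52_P651316: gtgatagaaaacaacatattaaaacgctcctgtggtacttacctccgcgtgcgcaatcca
Blk A_52_P15405: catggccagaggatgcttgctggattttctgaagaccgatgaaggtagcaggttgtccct

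Because Bob1 is recruited to octamer elements, the RefSeq promoter windows of the members (GRCm38.p6, 250 bases before to 50 bases after a start site) were searched on both strands for the octamer ATGCAAAT. Windows matched 7 of the 10 members, with 9 windows in all. Cd79b, Lyn and Blk had no window and were not searched. The octamer lay in 1 of these 9 windows, and in 570 of all 32851 windows (1.74%). That window belongs to Blnk, where the octamer starts at position -130 from the start site. The 250 bases before the start site of Blnk, chr19:40994222-40994471 on the minus strand, are shown with the octamer in capitals (as its reverse complement), beside those of Bank1, chr3:136326067-136326316 on the minus strand, the member with the largest difference in the arrays and no octamer match in its window.
Blnk upstream: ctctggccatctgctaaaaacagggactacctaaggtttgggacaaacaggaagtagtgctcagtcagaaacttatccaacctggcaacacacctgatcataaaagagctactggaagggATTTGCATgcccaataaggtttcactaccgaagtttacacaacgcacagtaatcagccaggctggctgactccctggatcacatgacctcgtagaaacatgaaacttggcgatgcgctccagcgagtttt
Bank1 upstream: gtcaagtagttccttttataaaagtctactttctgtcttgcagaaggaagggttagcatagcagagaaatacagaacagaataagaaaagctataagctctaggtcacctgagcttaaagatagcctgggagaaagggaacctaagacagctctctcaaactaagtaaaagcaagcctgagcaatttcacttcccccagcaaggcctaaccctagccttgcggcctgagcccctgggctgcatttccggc
A match of these letters is a description of the sequence, and no match says only that the letters are not in this window. A second motif, the ETS core GGAAGT on either strand, lay in 6 of the 9 member windows and in 23.8% of all windows.

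All levels below are log2 processed intensities relative to the array's own 75th percentile, so a level of 0 is that percentile. The share of probes well above background ran from 60.5% to 66.1% over the arrays, with the 2 Bob1 knockout arrays at 60.5% and 63.1%, and the 75th percentile ran from 494 to 782 intensity units. Across tested probes, r between a Bob1 knockout array and any of the 6 others was 0.971 to 0.979, against 0.987 to 0.994 among those 6. Both Bob1 knockout arrays were hybridised on slide 2 and both Bob1 wild-type arrays on slide 1, while each of the other 2 groups had an array on each slide. The Bob1 comparison therefore has no value within a slide against its own wild-type group, and it is given also with the slide as a block and against the 2 other arrays of slide 2. The level of the Pou2af1 probe was 2.77 ± 0.078 (SD, n = 2) in the Bob1 knockout and 6.48 ± 0.11 (SD, n = 2) in Bob1 wild-type, and it lay between 6.40 and 6.72 on all 6 arrays that carry the gene. Whether that probe lies in the deleted part is not known here, and no probe checked miR-146a. All 8 markers of B cell precursors used, among them Pax5, Vpreb1 and Igll1, were well above background on all 8 arrays.

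The comparison of Bob1 knockout with Bob1 wild-type asks how the loss of the coactivator changes transcript levels in these cultures. Bank1 and Cd79b fell, 1 of 2 Lyn probes fell and Lck rose. In total 4 of the 12 member probes fell, where 2.73% of all 26462 tested probes fell, and 1 of 12 rose, where 2.82% of all tested probes rose. The calls are from a limma fit with Benjamini-Hochberg adjustment over all tested probes and a threshold of 0.05. Since the members were chosen with earlier results of these data known, these shares are no test of the group. Of the 4 probes that fell, 1 of Bank1 passed the filter only through the groups in which it was bright, and among the 11 member probes well above background on all 8 arrays 3 fell and 1 rose. An unadjusted p under 0.05 was reached by 6 of these 11 and 7 of the 12, and by 27.4% of all tested probes (7249). Lyn and Bank1 enter the 12 with 2 probes each. With 1 probe per gene, the brightest, 2 of 10 member genes fell and 1 rose, where 572 and 614 of 17452 probes did. The median log2 fold change was -0.43 over the member probes and 0.11 over all tested probes, so a member at 0.11 sits at the centre of this comparison. Both knockout arrays lay below all 6 other arrays for 7 of the 12 member probes, and 14.3% of all tested probes did so. They lay above all 6 for Lck and Btk, 2 of 12, as did 25.8% of all tested probes.

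**Figure D1:**
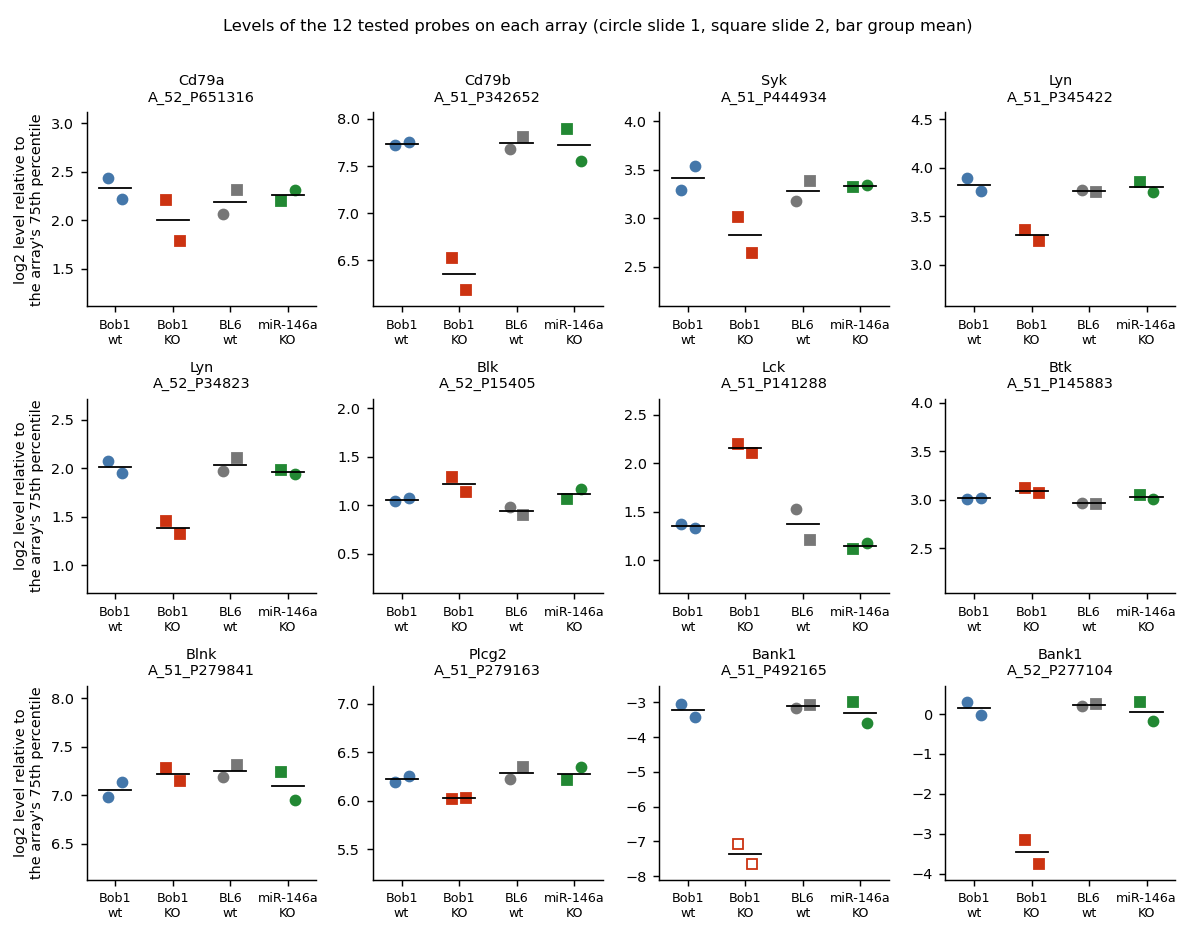
Levels of the 12 tested member probes on the 8 arrays, in log2 relative to the 75th percentile of the array, by group (wt, wild-type; KO, knockout); each panel has its own vertical axis, bars are group means of 2 arrays, circles are slide 1, squares slide 2, and open symbols are not well above background. The 2 Bob1 knockout arrays stand below the 6 others for both Bank1 probes, Cd79b, Syk, both Lyn probes and Plcg2. They stand above them for Lck and Btk. The 6 others lie within 0.61 of each other for every probe.

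Of the receptor chains, Cd79b fell and Cd79a did not pass the test. For Cd79b, the level was 7.72 and 7.76 on the Bob1 wild-type arrays A and B, 6.53 and 6.18 on the Bob1 knockout arrays, 7.68 and 7.81 in BL6 wild-type, and 7.90 and 7.55 in the miR-146a knockout. The 2 knockout arrays were more than 1 log2 unit below the lowest of the other 6, which spread from 7.55 to 7.90. In the Bob1 knockout Cd79b fell 2.61-fold, a log2 fold change of -1.39 with an SE of 0.18 (limma, adjusted p = 0.0107). The direction was kept when slide was a block (-1.62, adjusted p = 0.0779) and against the other arrays of slide 2 (-1.5, adjusted p = 0.0517), but the call was lost in both. The same held without replicate A (adjusted p = 0.0571) or replicate B (adjusted p = 0.0539) of Bob1 wild-type, and with only the 4 Bob1 arrays in the fit (0.0532). For Cd79a, the partner of Cd79b in the receptor, the mean level was 2.33 ± 0.15 in Bob1 wild-type, 2.00 ± 0.30 in the Bob1 knockout, 2.19 ± 0.17 in BL6 wild-type and 2.26 ± 0.08 in the miR-146a knockout (SD, n = 2 each). The higher knockout array, at 2.21, lay inside the range of the other 6, 2.07 to 2.44. Its log2 fold change of -0.33 had a 95% confidence interval from -0.78 to 0.11 and did not pass the test (adjusted p = 0.283).

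Among the 3 Src family kinases, 1 of 2 Lyn probes fell, Lck rose and Blk did not pass the test. Lyn is read by a pair of probes about 1 kb apart on chromosome 4. Probe A_52_P34823 gave 2.07 and 1.95 in Bob1 wild-type, 1.45 and 1.32 in the Bob1 knockout, 1.97 and 2.10 in BL6 wild-type, and 1.98 and 1.94 in the miR-146a knockout. The other Lyn probe, A_51_P345422, gave 3.89 and 3.76 in Bob1 wild-type, 3.36 and 3.25 in the Bob1 knockout, 3.77 and 3.75 in BL6 wild-type, and 3.85 and 3.75 in the miR-146a knockout. Both probes were lowest on the 2 Bob1 knockout arrays, with no overlap with the other 6. Lyn A_52_P34823 fell by 0.63 on the log2 scale (1.54-fold, SE 0.12, adjusted p = 0.0393), and Lyn A_51_P345422 had a log2 fold change of -0.52 (SE 0.12) that did not pass the test (adjusted p = 0.0569). The call on Lyn A_52_P34823 was lost when any of the 8 arrays was left out, with adjusted p from 0.0584 to 0.171, and with the slide as a block (log2 fold change -0.71, adjusted p = 0.282) or within slide 2 (-0.65, adjusted p = 0.137). Lyn A_51_P345422 passed with quantile normalization (-0.64, adjusted p = 0.0389), so the 2 probes had the same direction and stood on either side of the threshold. Myeloid cells also express Lyn and Syk. Of 12 myeloid markers 1 fell, Elane, which encodes neutrophil elastase, where 2.73% of all tested probes fell. In limma 6 of the 12 had an unadjusted p under 0.05, against 27.4% of all tested probes. The median log2 fold change of the 12 was -0.94. Their summed level, in multiples of the 75th percentile, was 923 and 1246 on the knockout arrays and 1122 to 1411 on the 6 others. S100a9, S100a8 and Lyz2 made up most of these sums, and without S100a9 they were 420 and 641 against 614 to 799. Both knockout arrays lay below all 6 others for Itgam, Csf1r, Csf3r, Mpo, Elane, Cybb and Cd14, where 14.3% of all tested probes did so. They did not for S100a8, S100a9, Lyz2, Cd68 and Adgre1. The medians were -0.80 for 5 dendritic cell markers, -0.78 for 6 of mast cells and basophils and -0.83 for 6 of megakaryocytes, with 0 called in each list in limma and 1, 0 and 1 at an unadjusted p under 0.05. Summed levels on the knockout arrays overlapped with those of the 6 others for dendritic cells (1.64 and 1.08 against 1.35 to 4.09) and for mast cells and basophils (7.18 and 6.29 against 7.04 to 23.2), and lay below them for megakaryocytes (54.1 and 78.6 against 86.8 to 163.5). The part of these shifts in the Lyn and Syk differences was not tested.

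Lck had levels of 1.38 and 1.33 in Bob1 wild-type, 2.20 and 2.10 in the Bob1 knockout, 1.53 and 1.21 in BL6 wild-type, and 1.12 and 1.18 in the miR-146a knockout. Its 2 knockout arrays were the highest of the 8, and the other 6 ran from 1.12 to 1.53. In the Bob1 knockout Lck rose 1.74-fold, a log2 fold change of 0.80 with an SE of 0.14 (adjusted p = 0.0301). The size was no smaller when slide was a block (0.99, adjusted p = 0.151) or within slide 2 (0.99, adjusted p = 0.0668), but neither passed, and the call was lost in 6 of the 8 fits that left out 1 array, those without a Bob1 or miR-146a array. T and NK cell markers, the other cells in which Lck is expressed, summed to 25.6 and 14.9 on the knockout arrays A and B (in multiples of the 75th percentile, 13 genes) and to between 28.7 and 33.8 on the 6 others. Thy1 made up most of these sums, and over the 12 other markers the knockout arrays, at 4.87 and 2.66, overlapped with the 6 others, at 3.78 to 11.4. Of the 13 markers, 1 fell (Prf1, which encodes perforin) and 0 rose, where 2.73% and 2.82% of all tested probes did. Their median log2 fold change was -1.06, or -0.81 with the markers not well above background in the knockout at their bound. Cd3e, a chain of the T cell receptor complex, had levels of -2.04 and -3.19 in the knockout and -2.30 and -2.71 in Bob1 wild-type. The other listed chains of this complex were further down in the knockout. Cd3d had 0.27 and -2.40 in the knockout against 1.64 and 0.21 in Bob1 wild-type. Cd3g had -3.21 and -5.52 against -1.78 and -3.25, and Cd247 had -2.82 and -5.29 against -1.54 and -2.59. The summed level of 8 markers of B cell precursors was 717 and 621 in the knockout and between 396 and 539 on the other 6 arrays. Without Vpreb1, the brightest, it was 342 and 296 against 186 to 228. Both knockout arrays lay above all 6 others for Pax5, Vpreb1, Igll1, Il7r and Cd24a, where 25.8% of all tested probes did so. They lay below all 6 for Rag1 (2.45 and 1.98 against 2.49 to 2.76), where 14.3% did so, and overlapped for Ebf1 and Dntt. Of the 8 precursor markers, Cd24a (log2 fold change 1.08, adjusted p = 0.00564) and the IL-7 receptor gene Il7r (0.80, adjusted p = 0.0326) rose in limma, where 2.82% of all tested probes rose. The part of these marker differences in the Lck difference was not tested. Blk, the B-lineage member of the family, had a mean level of 1.06 ± 0.02 in Bob1 wild-type, 1.22 ± 0.11 in the Bob1 knockout, 0.94 ± 0.06 in BL6 wild-type and 1.12 ± 0.07 in the miR-146a knockout (SD, n = 2 each). The Bob1 difference for Blk was 0.16 on the log2 scale (95% confidence interval -0.13 to 0.44, adjusted p = 0.408), and the lower knockout array, at 1.14, lay within the range of the other 6.

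The cytoplasmic kinases Syk and Btk and the adaptor Blnk did not pass the test. Syk had levels of 3.01 and 2.64 on the Bob1 knockout arrays A and B and between 3.17 and 3.54 on the other 6, so the groups did not overlap. Its log2 fold change was -0.59 (95% confidence interval -1.01 to -0.18, unadjusted p = 0.0124, adjusted p = 0.0978, limma), and the knockout arrays differed from each other by 0.37. For Btk, which is read by 10 spots on each array, the 8 levels ran only from 2.96 to 3.12. Its mean was 3.02 ± 0.006 in Bob1 wild-type, 3.09 ± 0.03 in the Bob1 knockout, 2.96 ± 0.005 in BL6 wild-type and 3.03 ± 0.03 in the miR-146a knockout (SD, n = 2 each), and the 95% confidence interval of the Bob1 difference ran from -0.18 to 0.33. Blnk had a mean level of 7.06 ± 0.11 in Bob1 wild-type, 7.22 ± 0.09 in the Bob1 knockout, 7.25 ± 0.09 in BL6 wild-type and 7.09 ± 0.21 in the miR-146a knockout. Both knockout arrays, at 7.28 and 7.15, lay within the range of the other 6, 6.95 to 7.31. The Bob1 difference was 0.16 for Blnk (95% confidence interval -0.20 to 0.51) and 0.076 for Btk, both near the median of all tested probes. Their sign turned under other scalings: for Blnk it was -0.079 with quantile normalization, and for Btk -0.038.

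Plcg2, the phospholipase that releases inositol trisphosphate, had levels of 6.02 and 6.03 in the Bob1 knockout and between 6.19 and 6.35 on the other 6 arrays. The knockout arrays were the lowest of the 8. The log2 fold change of -0.20 did not pass the test (95% confidence interval -0.48 to 0.08, adjusted p = 0.307). In the authors' deposited table, Plcg2 was lower by a log2 difference of -0.37 and passed (adjusted p = 0.0373, limma on those values).

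Bank1, the scaffold, had the largest difference of the 10 genes. Probe A_52_P277104, on chromosome 3 at 135716867 to 135716926 in mm9, gave 0.30 and -0.02 in Bob1 wild-type, -3.16 and -3.74 in the Bob1 knockout, 0.20 and 0.26 in BL6 wild-type, and 0.29 and -0.19 in the miR-146a knockout. In intensity units these were 940 and 770 in Bob1 wild-type against 55.1 and 46.5 in the knockout. Every array was well above background for this probe, and the highest knockout array lay almost 3 log2 units below the lowest of the other 6. On this probe Bank1 fell 12.1-fold, a log2 fold change of -3.59 with an SE of 0.25 (adjusted p = 0.00126). The probe printed above, A_51_P492165, gave -3.03 and -3.42 in Bob1 wild-type, -3.15 and -3.08 in BL6 wild-type, and -2.98 and -3.60 in the miR-146a knockout, all well above background. On the knockout arrays it gave -7.06 and -7.64 and was not well above background on either. Bank1 A_51_P492165 therefore has only a bound: it fell at least 4.82-fold, from the mean of Bob1 wild-type against, on each knockout array, the lowest signal among probes well above background (measured means -3.23 and -7.35, adjusted p = 0.0011).

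The call on Bank1 A_52_P277104 was kept with the slide as a block (log2 fold change -3.86, adjusted p = 0.0296), against the other arrays of slide 2 (-3.73), and in all 8 fits that left out 1 array. In the authors' deposited table its log2 difference was -0.79 and passed. In that table the lowest value of Bob1 knockout replicate A was 9.488 and the median 9.589, so low signals of this array span a narrow range. The other columns had medians of 9.587 to 9.589 and a lowest value of 4.494, which does not show how narrow their low signals were. Probe A_51_P492165 was tested because the 3 other groups read it above background, so its call is no second support, and in the authors' deposited table it did not pass (adjusted p = 0.0724). The third Bank1 probe, A_52_P303769, was designed to another transcript and lies inside the mm9 interval of A_51_P492165, at 135874089 to 135874148. Its GC content is 18.3%, where the lowest 1% of all probes end at 21.7%, and its processed signal was 2.48 to 2.95 intensity units on all 8 arrays, so it says nothing about Bank1.

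**Figure D2:**
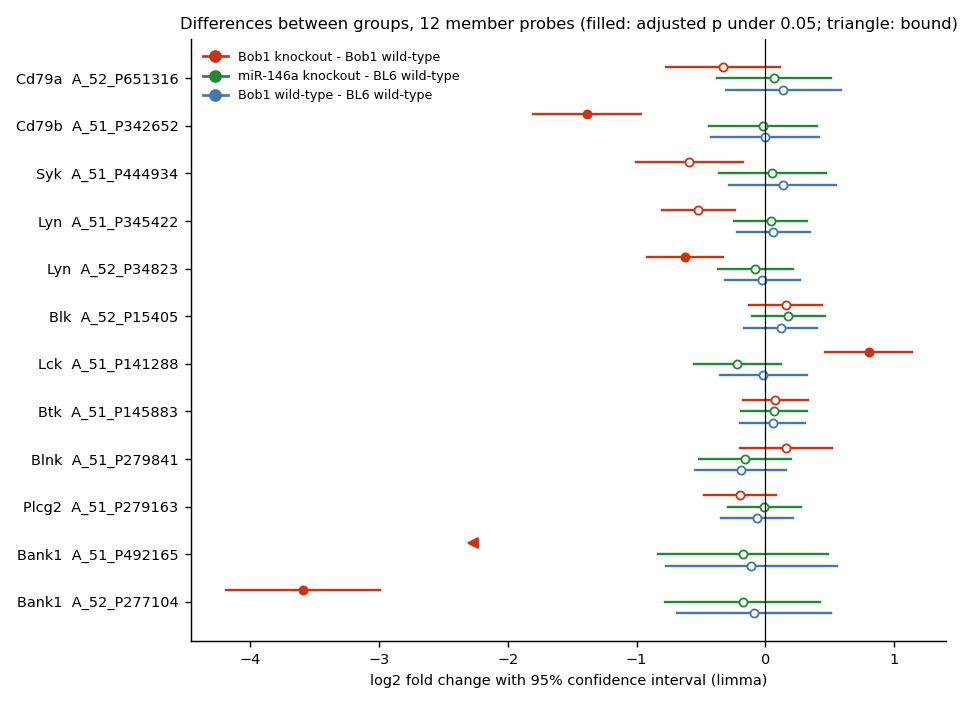
Log2 fold changes (points) and 95% confidence intervals (lines) of the 12 tested member probes for Bob1 knockout minus Bob1 wild-type, miR-146a knockout minus BL6 wild-type, and Bob1 wild-type minus BL6 wild-type; filled points have an adjusted p under 0.05, and the triangle is the bound of Bank1 A_51_P492165, which was not well above background in the Bob1 knockout (at least 4.82-fold lower). Filled symbols occur only in the Bob1 knockout comparison, at both Bank1 probes (-3.59 for A_52_P277104), Cd79b (-1.39), Lyn (-0.63) and Lck (0.80).

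**Figure D3:**
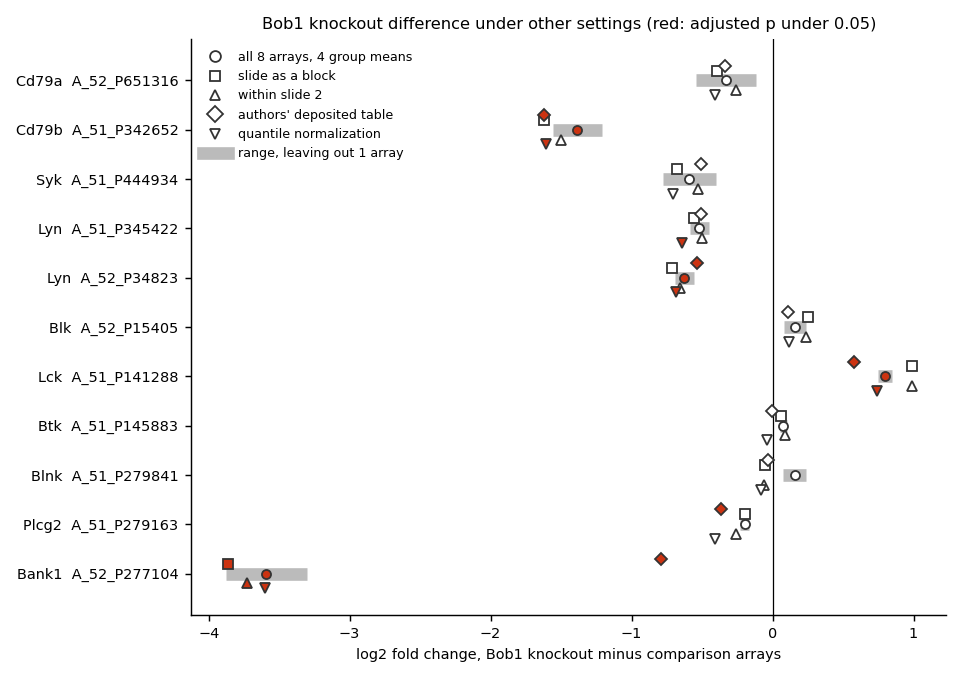
Log2 fold change in the Bob1 knockout, under 5 settings, of the 11 member probes well above background on all 8 arrays (symbols; red, adjusted p under 0.05), with the range over the 8 fits that left out 1 array in grey. Of these probes only Bank1 A_52_P277104 is red with the slide as a block (-3.86) and within slide 2 (-3.73), and in the authors' deposited table its value lies closer to 0 (-0.79). Low signals of at least Bob1 knockout replicate A span a narrow range in that table.

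The comparison of the miR-146a knockout with BL6 wild-type asks the same question for the microRNA. In the limma fit 0 of 12 member probes were called, where 0.0718% of all tested probes were called (19 probes), and 0 of 12 reached an unadjusted p under 0.05, while 717 of all tested probes did. The difference of largest size was that of Lck, -0.22 on the log2 scale (95% confidence interval -0.56 to 0.12, unadjusted p = 0.167). Over the 12 probes the confidence intervals reached from -0.84 to 0.51. Only those of the Bank1 probes, from -0.84 and -0.78, included -0.63, the difference of Lyn A_52_P34823 in the Bob1 knockout. These intervals are not adjusted. Of the 717 tested probes at an unadjusted p under 0.05 in limma 19 were called, so a difference of that size could go uncalled in any member. Within slide 1 the 12 differences, 1 array against 1, ran from -0.45 to 0.25, and within slide 2 from -0.14 to 0.17. For the Bank1 probe A_52_P277104 the group means were 0.05 ± 0.34 in the miR-146a knockout and 0.23 ± 0.04 in BL6 wild-type (SD, n = 2 each).

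The wild-type groups, compared as a scale for the knockouts, gave 0 calls among the 12 member probes in limma, where 0.034% of all tested probes were called (9 probes), and the lowest unadjusted p was 0.237, for Blnk (log2 difference -0.19, 95% confidence interval -0.55 to 0.16). An unadjusted p under 0.05 was reached by 0 of the 12 and by 564 of all tested probes. Confidence intervals over the 12 reached from -0.77 to 0.58.

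Whether the Bob1 difference differed from the miR-146a difference was tested directly, as these comparisons share no arrays. Both Bank1 probes were called, 2 of 12, where 1.5% of all tested probes were. For A_52_P277104 the log2 difference of differences was -3.41 (SE 0.35, adjusted p = 0.0101). For A_51_P492165 (adjusted p = 0.00867) no size is given, since the Bob1 difference of this probe has only a bound and it was tested through the groups in which it was bright. With slide blocked neither passed (-3.69 for A_52_P277104, adjusted p = 0.0655, and adjusted p = 0.0528 for A_51_P492165). Cd79b (-1.37, adjusted p = 0.0591) and Lck (1.02, adjusted p = 0.0726) did not pass, nor did the Lyn probes (adjusted p = 0.158 and 0.171) or Syk (0.22).

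Around the 10 members, 56 further genes of the pathway were taken from 5 lists, each gene by its brightest tested probe, and 55 were tested. In the Bob1 knockout 5 of the 55 fell and 1 rose, where 2.73% and 2.82% of all tested probes did, and 16 had an unadjusted p under 0.05 (29.1%, against 27.4% of all tested probes), with a median log2 fold change of -0.13 against 0.11 over all tested probes. Among the receptor and co-receptor genes 0 of 6 were called in limma, with 3 at an unadjusted p under 0.05: the immunoglobulin mu heavy chain gene Ighm (-0.17, adjusted p = 0.452) did not pass, and the median of the list was 0.49. Of 9 related kinases 1 fell, the Btk relative Tec (-0.99, adjusted p = 0.0149). In limma 4 of the 9 had an unadjusted p under 0.05. The median of this list was -0.67, or -0.57 with bounds where a group was not well above background. Zap70, the T cell counterpart of Syk, had a mean level of 0.58 ± 0.13 in the Bob1 knockout and -1.28 ± 0.46 in Bob1 wild-type (SD, n = 2 each), a log2 difference of 1.87 that did not pass the test (adjusted p = 0.0539).

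Of 12 adaptors and exchange factors 1 fell, the transmembrane adaptor Lat2 (-0.67, adjusted p = 0.0441). Of 16 downstream genes 2 fell: Rasgrp1, an exchange factor for Ras that responds to diacylglycerol (-2.02, 4.06-fold, adjusted p = 0.00126), and the protein kinase C isoform Prkcd (-0.94, adjusted p = 0.0182). Among 12 inhibitors the adaptor Dok3 fell (-1.12, adjusted p = 0.0424) and Cd22, a lectin that restrains the receptor, rose (0.61, adjusted p = 0.0451). When slide was a block Rasgrp1 passed (adjusted p = 0.0222), while Tec (0.133), Lat2 (0.45), Prkcd (0.246), Dok3 (0.284) and Cd22 (0.465) did not. Lat2 and Cd22 lost their calls in all 8 fits that left out 1 array, Dok3 in 7, Tec in 4 and Prkcd in 3. The part of the myeloid and other marker shifts given above in the differences of the pathway genes was not tested. In the miR-146a knockout and between the wild-type groups 0 of the 55 genes were called in limma, with 0 and 1 at an unadjusted p under 0.05. In the test of the difference between both knockout differences 1 of 55 was called, Rasgrp1 (-1.90, adjusted p = 0.0105).

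**Figure D4:**
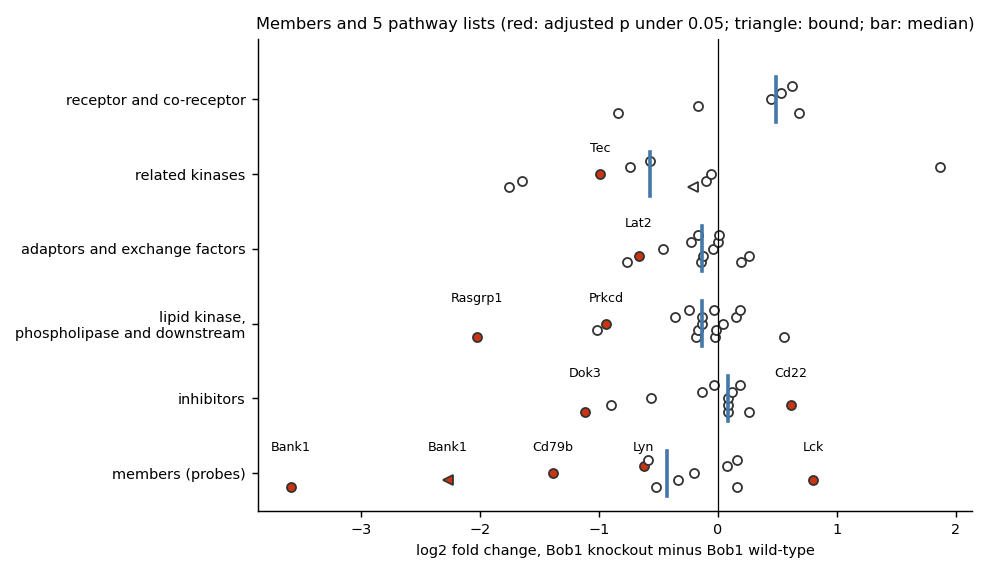
Log2 fold change of 55 pathway genes in 5 lists and of the 12 member probes in the Bob1 knockout against Bob1 wild-type; each point is a gene (bottom row, a probe), red points have an adjusted p under 0.05 and are named, triangles are bounds for those not well above background in the knockout, and blue bars are medians. Red points lie to the left of 0 for Bank1, Cd79b, Lyn, Tec, Lat2, Rasgrp1, Prkcd and Dok3, and to the right for Cd22 and Lck.

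Group means spanned more than 1 log2 unit for 3 of the members, Bank1 (3.68), Cd79b (1.39) and Lck (1.002), each by its brightest probe. Among 14544 other named genes, those with the highest Pearson r to Bank1 over the 8 arrays were Gramd3 (0.998), Ly6d (0.998) and Lrrc15 (0.998). For Cd79b they were Tmem163 (0.995), Ms4a1 (0.995, which encodes CD20, a surface protein of B cells) and Rnase6 (0.994), and for Lck they were Stk39 (0.989), 2810039B14Rik (0.986) and Hace1 (0.986). These values rest on the split between the 2 Bob1 knockout arrays and the other 6. Over the 6 other arrays alone r was 0.887, 0.835 and 0.923 for the Bank1 set, 0.752, 0.818 and 0.780 for the Cd79b set, and 0.949, 0.964 and 0.929 for the Lck set. The genes were picked by r over all 8 arrays, which include these 6, so the values over the 6 are no separate check. All are descriptions over arrays that share 2 slides.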

How the data were processed

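Per the file headers, Feature Extraction 10.5.1.1 quantified the spots, and the deposited intensity used here is its processed signal, background-subtracted and detrended within the array, with no scaling between arrays. Flags per spot (well above background, saturation, outlier) are those deposited in the same scanner files, and no spot was saturated. RNA was primed with oligo-dT and labelled with Cy3, per the labels' protocols. The authors also deposited a table of log2 values for these 8 arrays, and how they normalized it is not stated. The submitters' processing notes name limma without a version. Each column of that table ranked its probes most like its own array (rank correlation 0.9967 to 0.9986), and its column medians were 9.587 to 9.589.

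Control and outlier spots were dropped, spots of a probe were averaged, and log2 processed signal minus the array's 75th percentile was used. Tested were probes well above background on both arrays of 1 or more groups (26462 of 41174 probes; 66 probes with an outlier spot were left out). limma 3.58.1 in R 4.3.3 (data.table package, version 1.17.8) fitted 4 group means to 8 arrays, with 4 residual degrees of freedom, adjusted p by Benjamini-Hochberg over all tested probes, and a threshold of 0.05 without a minimum fold. Rose, fell and called are used of probes past it, and SE is limma's moderated standard error. The fit was tried on simulated arrays without a slide effect, with planted changes larger than those called for Cd79b, Lyn and Lck. The simulation therefore does not bear on calls of that size. Gene names outside the members came from the scanner files or, for 27584 probes, from a RefSeq gene table (GRCm38.p6).

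Every probe of the 10 members is named, and of the pathway lists the called genes, at most the 4 largest per list and direction. A few others were chosen after their values were seen (Ighm, Zap70, Cd3d, Cd3e, Cd3g, Cd247 and the called markers). The genes most like a member are the 3 with the highest Pearson r, for members whose group means span over 1. A few listed genes are not reported here and were left out of the lists and of the search for the genes most like a member. Members and lists were chosen with earlier results of these data known. The alternatives were other background corrections, scalings, filters and sources of values, 1 probe per gene, slide and replicate letter as blocks, fewer arrays, and leaving out each array in turn.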

Additional observations from a re-analysis of the deposited data

Results flagged for a closer look

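The Bob1 and the miR-146a differences of 1 Bank1 probe differed from each other by a test of that difference (limma over all tested probes). The difference of differences was -3.41 on the log2 scale (adjusted p = 0.0101) for probe A_52_P277104, which was well above background on all 8 arrays. The Bob1 groups lay on separate slides, and the call was lost when slide was blocked (-3.69, adjusted p = 0.0655) and in the authors' deposited table (-0.65, adjusted p = 0.0998). Low signals of at least Bob1 knockout replicate A span a narrow range in the deposited table. Both Bob1 knockout arrays were lower than both Bob1 wild-type arrays on this probe, while the miR-146a knockout arrays overlapped with BL6 wild-type. Groups of 2 arrays cannot be searched for a single deviating array.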

How the results depend on the processing

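With 2 arrays in a group and a single slide for each Bob1 group, the calls rested on few degrees of freedom. In the Bob1 comparison 5 of 12 member probes were called. The number was 0 with normexp background correction, 3 without the filter on dim probes and 3 with 1 probe per gene (where a second probe of Lyn and of Bank1 drops out by construction), 2 with the slide as a block, 2 with only the 4 Bob1 arrays and 2 within slide 2. Leaving out 1 array gave 2 to 4. In the other settings it was 4 to 6. In the test between both knockout differences 2 probes were called, and 0 with normexp, 0 in the authors' deposited table, 0 with the slide as a block, 1 with 1 probe per gene and 1 to 2 with 1 array left out (1 without BL6 wild-type replicate B, where A_52_P277104 had an adjusted p of 0.0526). In the miR-146a and wild-type comparisons 0 member probes were called in any setting run (225 and 213 values, lowest adjusted p 0.87 and 0.931).

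Over all tested probes 1468 were called in the Bob1 comparison and 0 with normexp. On 4 arrays normexp met 2 to 6 spots whose local background exceeded the spot (lowest spot minus background -530245), and its 75th percentile on these arrays was 935 to 2890 against 555 to 828 on the other 4. Fitted without such spots, an alternative chosen after seeing the data, it called 5427 probes and 6 member probes, with Bank1 A_52_P277104 at -2.63. Other counts were 716 without the filter, 124 with the slide as a block, 362 with only the 4 Bob1 arrays, 286 within slide 2 and 480 to 1018 with 1 array left out. For the other settings that moved this count the cause was not tested.

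Signs turned for Btk (-0.038 with quantile normalization, -0.0017 in the deposited table), for Blnk in the Bob1 comparison (-0.079 with quantile normalization, -0.033 in the deposited table, -0.051 with the slide as a block, -0.060 within slide 2) and for Blnk between the wild-type groups (0.37 with normexp). In the Bob1 comparison no other member probe and none of the called pathway genes turned in the settings run. Over all member probes and settings, the sign differed from that of the reported value in 20 of 225 values in the miR-146a comparison, in 25 of 213 between the wild-type groups and in 13 of 213 in the test between both knockout differences.

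The replicate letters share a sex, and the differences between replicates A and B correlated positively between all groups, at 0.068 to 0.359. The letters were not taken to pair the cultures in the main fit, so a shift shared by a letter stayed in its spread. With a replicate block 6 member probes were called in the Bob1 comparison (Lyn A_51_P345422 at an adjusted p of 0.0431) and 2267 of all tested probes.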
